A study of Mus musculus with 34 samples.

Results

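The 4 tumours of mice treated with DkkMo, a morpholino oligonucleotide directed against Dkk-1, were compared with the 4 tumours of untreated (NT) mice. These 8 libraries were chosen by their labels out of 34 in the series, and the difference of the group means was taken for each of 12595 genes, as deposited and after each library was centred on its own median. All tumours were grown from MOSJ-Dkk1 cells, mouse sarcoma cells of bone and cartilage origin that carry a lentiviral human Dkk-1 transgene under a CMV promoter and release its product. The cells, carried in clotted human plasma, were placed between the tibia and the fibula of immune-deficient Foxn1-mutant nude mice of 2 months of age. NT mice received vehicle and DkkMo mice received intraperitoneal DkkMo, and no tumours of mice given a scrambled morpholino were sequenced. The other 8 tumours came from mice given DRB (doxorubicin, an anthracycline chemotherapy that poisons topoisomerase II) alone or DRB with DkkMo (combination). The mice were fixed by perfusion, tumour and stroma were dissected from bone and muscle, and RNA was extracted by a protocol for formalin-fixed tissue. The host has no thymus and lacks mature T cells, and every tumour was of the same cell line.

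Dkk-1 is a secreted inhibitor of canonical Wnt signalling, which it blocks by binding the co-receptors Lrp5 and Lrp6. When the pathway is active, beta-catenin (Ctnnb1) is spared from degradation and acts with the TCF/LEF factors at target genes such as Axin2. In osteosarcoma, a bone-forming tumour, Dkk-1 is known as a factor that holds back osteoblast differentiation and repair of bone. A morpholino blocks translation or splicing of its target RNA without cutting it, so the level of the target RNA is no measure of its effect. Mouse Dkk1 was not among the genes listed for the tumours, and the human transgene is not a feature of the mouse annotation, so neither was analysed here.

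The untreated tumours differed more among themselves than the DkkMo tumours did. Levels are given as the deposited variance-stabilised log2 values, on which a gene without reads is listed at 6.23. Over all genes, the median SD between tumours was 1.37 in NT and 0.84 in DkkMo. The 4 DkkMo tumours correlated with each other at a Spearman rho of 0.73 to 0.83. The tumour NT 5A correlated with the DkkMo tumours at 0.80 to 0.85, whereas with the other NT tumours its rho was 0.25 to 0.76. Among the 8 tumours compared, NT 7A stood apart, with a rho of 0.21 to 0.38 to the DkkMo tumours and 0.25 to 0.48 to the other NT tumours. Outside these groups its rho with DRB 14A, a tumour of a mouse given DRB, was 0.64. These rho values are across genes within tumours and are descriptions. Reads summed over the listed genes were 53835608 to 125059169 in NT and 26863474 to 52134916 in DkkMo (p = 0.0286 in a two-sided exact permutation test, which cannot give less with 4 tumours a group). Depth and treatment cannot be told apart, since all 4 NT libraries were deeper than all 4 DkkMo libraries. Genes without reads numbered 164 to 1101 in NT and 118 to 1985 in DkkMo (p = 0.257, exact permutation test). The 10 most abundant genes took 8.51% to 38.7% of reads in NT and 14.5% to 24.2% in DkkMo (p = 0.657, exact permutation test).

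**Figure D1:**
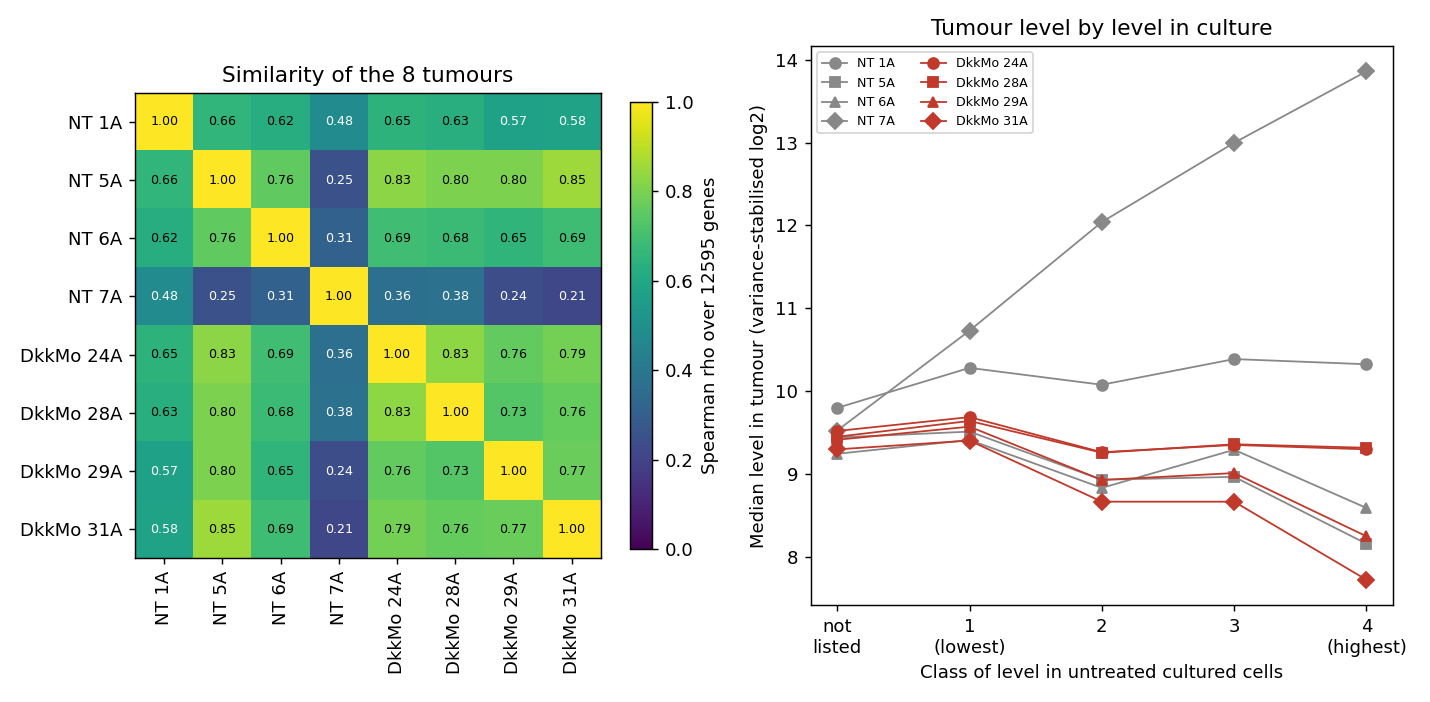
Left, Spearman rho between the 8 tumours over 12595 genes. Right, median level (variance-stabilised log2) of genes in 4 equal classes of their level in untreated log-phase MOSJ-Dkk1 cultures, or not listed there, 1 line per tumour (NT grey, DkkMo red). NT 7A rose from 9.52 for genes not listed in culture to 13.86 in class 4, and NT 5A lay among the DkkMo tumours.

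No gene passed the test of DkkMo against NT. limma called 0 of 12595 genes (0%), a call being a change of over 1.5-fold whose adjusted p was below 0.05, and the smallest adjusted p was 0.244. At an unadjusted p below 0.05, 275 genes were higher (2.18%) and 1279 were lower (10.2%) in DkkMo. The 4 DkkMo values lay all above the 4 NT values for 229 genes (1.82%) and all below them for 405 genes (3.22%). limma voom on reads recovered from the deposited values also called 0 genes, with 883 at an unadjusted p below 0.05, and thinning all libraries to the 26863474 reads of the shallowest tumour gave 0 and 1223.

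The direction of most genes depended on how the libraries were scaled. As deposited, 68.3% of genes were lower in DkkMo and the median change was -0.54. After centring, 46.2% were lower and the median change was 0.11, with 812 genes higher and 570 lower at an unadjusted p below 0.05. The centred groups did not overlap for 394 genes higher (3.13%) and 228 lower (1.81%), the reverse of the balance as deposited. Quantile normalisation gave a median of 0.05, with 957 higher and 650 lower. Changes below are on the deposited scale and are to be read against the median of -0.54. In bulk tissue, fewer cells of a type and less RNA per cell cannot be told apart.

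**Figure D2:**
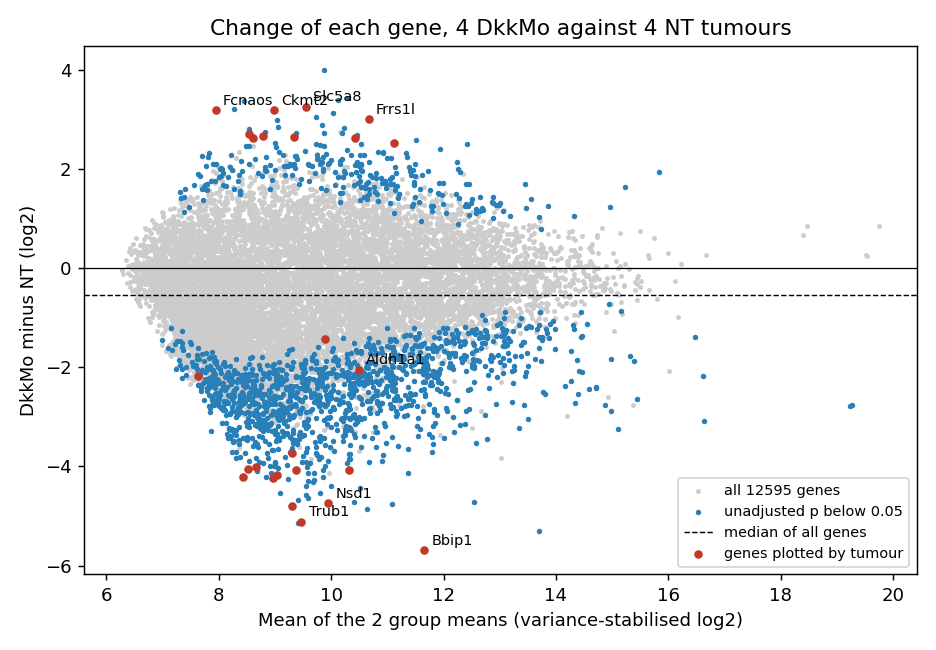
Change of each of 12595 genes (DkkMo minus NT, log2) against the mean of the group means (variance-stabilised log2). Genes at an unadjusted p below 0.05 are blue and lie mostly below 0. The dashed line is the median of all genes, -0.54, and none of the genes was called.

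Slc5a8, Ckmt2, Fcnaos and Frrs1l had the largest increases of named genes whose groups did not overlap. Predicted and clone names were left out. Among the other genes, the 10 with the largest increase at an unadjusted p below 0.05 and no overlap were higher in DkkMo by 2.53 to 3.26. All 10 missed the call. Ckmt2, the mitochondrial creatine kinase of striated muscle, was at 6.86, 8.82, 6.97 and 6.87 in NT 1A, 5A, 6A and 7A and at 10.63, 9.75, 11.05 and 10.86 in DkkMo 24A, 28A, 29A and 31A. All 4 DkkMo tumours were above NT 5A, the highest NT tumour (change 3.19 ± 0.86 SE, limma adjusted p = 0.273). Fcnaos, an annotated antisense RNA, was close to the level of no reads in NT (6.23, 6.53, 6.23 and 6.41) and reached 10.37, 8.99, 9.40 and 9.39 in DkkMo. Its change was 3.19 ± 0.94 (limma adjusted p = 0.273). Whether counting used strand is not given in the sources used here, so its reads cannot be told apart from those of a gene on the other strand. Slc5a8, a sodium-coupled carrier of short-chain fatty acids, was at 8.92, 9.64, 6.40 and 6.70 in NT and at 10.81, 11.28, 12.26 and 10.37 in DkkMo. Frrs1l, a component of AMPA-type glutamate receptor complexes, was at 9.35, 11.27, 8.77 and 7.27 in NT and at 12.40, 11.96, 11.98 and 12.34 in DkkMo. In both genes the DkkMo tumours were the tighter group (SD 0.81 and 0.23, n = 4, against 1.61 and 1.65, n = 4). The remaining genes were Pop1, an RNase P and RNase MRP subunit, Eef1aknmt, a methyltransferase of an elongation factor, and Sbk2, Syde2, Slitrk3 and Fbxw15, with changes of 2.53 to 2.71.

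Bbip1, Trub1 and Hook3 had the largest decreases without overlap, again with predicted and clone names left out. The 10 largest had changes of -5.69 to -4.01, and all 10 missed the call with limma adjusted p-values from 0.244 to 0.28. Bbip1, a subunit of the BBSome that carries membrane proteins to cilia (chr19:53929861-53944627 of GRCm38, minus strand), was at 15.69, 14.15, 13.46 and 14.72 in NT and at 11.47, 11.15, 6.41 and 6.23 in DkkMo. The reads behind these values were 61525, 58567, 9771 and 22963 in NT against 4935, 2792, 1 and 0 in DkkMo. The DkkMo tumours fell into a pair with many reads and a pair with almost none, and all were below NT (change -5.69 ± 1.29, adjusted p = 0.26). Trub1, a pseudouridine synthase that modifies RNA (chr19:57452912-57491005, plus strand), was at 11.80, 10.00, 12.44 and 13.89 in NT and at 8.34, 6.86, 6.23 and 6.23 in DkkMo. It had the smallest p of all genes (change -5.12 ± 0.92, unadjusted p = 2.04e-05, limma adjusted p = 0.244), and after centring the change was -4.47. Hook3, a dynein adaptor (chr8:26021421-26119224, minus strand), was at 11.75, 8.21, 12.00 and 14.85 in NT and at 8.07, 6.23, 7.06 and 6.23 in DkkMo. Here NT 5A lay just above the highest DkkMo tumour. Fh1, the fumarate hydratase of the citric acid cycle, showed the same arrangement, with NT 5A at 8.09, the other NT tumours at 11.91 to 12.18 and DkkMo at 6.23 to 7.93. Pbrm1, a subunit of the PBAF chromatin remodelling complex, was at 8.57 to 14.24 in NT and at 6.23 to 7.74 in DkkMo (change -4.18 ± 1.03, limma adjusted p = 0.273). The others were Tmod3, which caps actin filaments, Edem3, which takes part in disposal of misfolded glycoproteins, the secreted protease Htra3, the zinc finger protein Zfp180 and the BTB-kelch protein Klhl5, with changes of -4.21 to -4.01. Genes without reads in some DkkMo tumours have changes that are set partly by the floor of the scale.

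**Figure D3:**
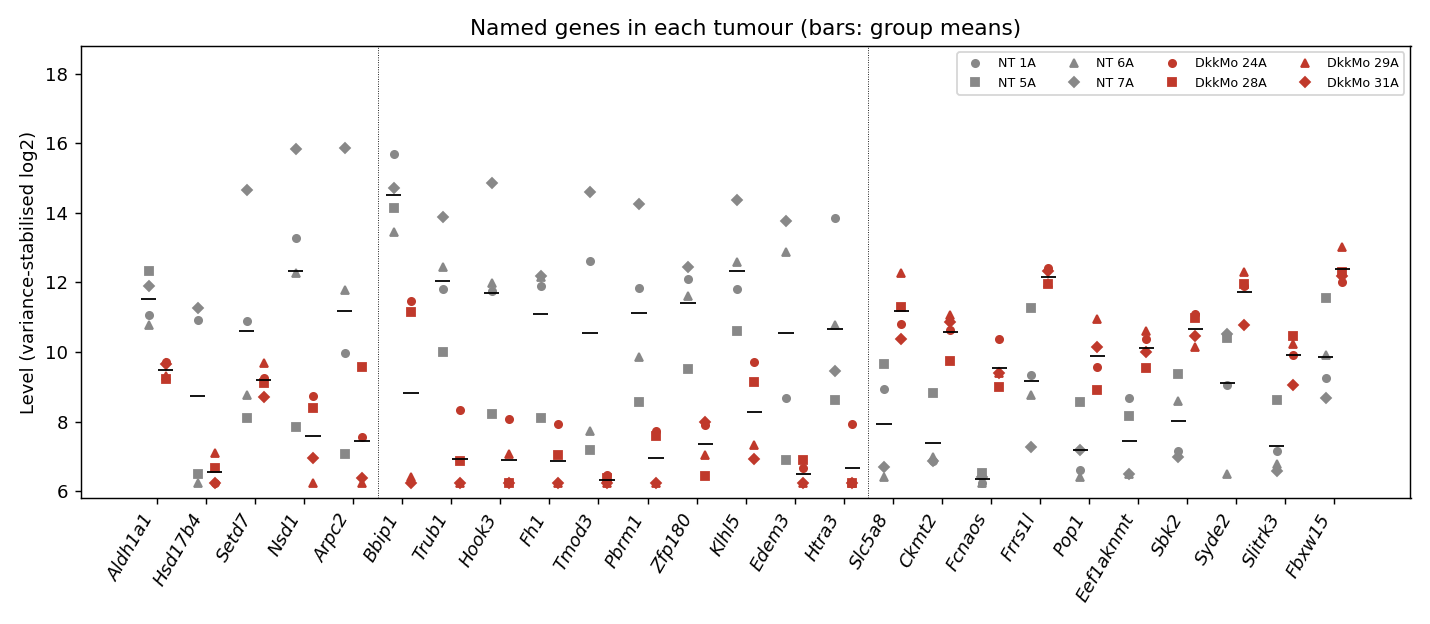
Level (variance-stabilised log2) of 25 genes in each of the 4 NT (grey) and 4 DkkMo (red) tumours, with bars at the group means. From left, 5 genes discussed in the study, the 10 largest decreases and the 10 largest increases without overlap (predicted and clone names left out). In several decreases the square of NT 5A lies just above the DkkMo values.

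Of the 5 genes that the study discusses for its tumours, all were lower in DkkMo and none passed the test. Of them 1 did not overlap, beside 3.22% of all genes lower without overlap. That list was chosen on these samples and is not independent evidence of its direction. Aldh1a1, an aldehyde dehydrogenase that makes retinoic acid and marks stem-like tumour cells (chr19:20492715-20643465, plus strand), was at 11.06, 12.34, 10.77 and 11.90 in NT and at 9.71, 9.22, 9.31 and 9.65 in DkkMo. Every DkkMo tumour was below every NT tumour (change -2.05 ± 0.62, limma adjusted p = 0.273), and the change was -1.78 without NT 5A, -1.92 without NT 7A and -1.40 after centring. Nsd1, a histone H3 methyltransferase (chr13:55209782-55318325, plus strand), was at 13.29, 7.86, 12.27 and 15.84 in NT and at 8.74, 8.38, 6.23 and 6.95 in DkkMo. NT 5A lay inside the DkkMo range. The change of Nsd1 was -4.74 ± 1.30 (limma adjusted p = 0.273) and became -6.23 (adjusted p = 0.0207) without NT 5A. Arpc2, a subunit of the Arp2/3 complex that branches actin (chr1:74236084-74268209, plus strand), was at 9.96, 7.05, 11.79 and 15.88 in NT and at 7.56, 9.56, 6.23 and 6.39 in DkkMo. Its groups overlapped (change -3.74 ± 1.51, limma adjusted p = 0.342). Hsd17b4, a peroxisomal enzyme of fatty acid oxidation, was near 11 in NT 1A and NT 7A (10.93 and 11.26), at 6.49 and 6.23 in NT 5A and NT 6A and at 6.23 to 7.08 in DkkMo (change -2.18 ± 1.22, limma adjusted p = 0.453). Setd7, a lysine methyltransferase, was at 14.66 in NT 7A and at 8.11 to 10.90 in the other NT tumours, against 8.71 to 9.68 in DkkMo. Its change was -1.42 ± 1.17 (limma adjusted p = 0.59) and only -0.07 without NT 7A.

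A promoter window of Aldh1a1 is shown. Among the windows that could be printed for the study's genes and the 20 largest changes, it was the one to hold the TCF/LEF core. The motif searched was CTTTGAA or CTTTGAT on either strand, and its matches are in capitals. The sequence is the 250 bases before an annotated RefSeq start of the gene, plus strand, at chr19:20492333-20492582 of GRCm38.p6.
Aldh1a1: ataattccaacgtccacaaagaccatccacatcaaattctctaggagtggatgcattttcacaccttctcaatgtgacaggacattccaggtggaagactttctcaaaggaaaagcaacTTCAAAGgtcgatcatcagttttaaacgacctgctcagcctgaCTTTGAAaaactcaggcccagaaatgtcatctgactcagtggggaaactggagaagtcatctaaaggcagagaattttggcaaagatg
The window before a second annotated start of the gene, at chr19:20601718-20601967, holds no match. Which start the tumours use was not tested. The matches shown begin 131 and 88 bases before the start, the first on the minus and the second on the plus strand. In the full windows, which reach 50 bases past the start, 8.95% of the 8627 tested genes with a promoter entry held the motif, against 8.84% of the genes higher and 7.17% of the genes lower at an unadjusted p below 0.05. A match is a description of the letters and not a measured binding site.

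No canonical Wnt target passed the test in tumours treated with the morpholino. Of 51 targets listed, 27 were measured, 6 were higher and 21 lower, and the median change was -0.81, or -0.16 after centring. Of these, 4 were lower (10.2% of all genes) and 0 higher at an unadjusted p below 0.05, 2 were lower without overlap (3.22% of all genes), and limma called 0. Axin2, the feedback inhibitor most used as a readout of the pathway, was at 7.51, 7.81, 6.89 and 7.47 in NT and at 7.84, 8.83, 8.52 and 7.10 in DkkMo. The groups overlapped (change 0.65, limma adjusted p = 0.667). Tcf7, which encodes a TCF factor and is also expressed by T cells, had the largest change of the list, with 10.90, 9.24, 11.77 and 12.90 in NT and 7.24, 6.58, 8.77 and 8.74 in DkkMo. It did not overlap but missed the call (change -3.37 ± 0.95, limma adjusted p = 0.273). Lef1 was also lower without overlap, at 12.21 to 13.74 in NT and 11.49 to 12.11 in DkkMo (change -1.15, limma adjusted p = 0.446). Among 45 receptors and pathway components, 22 were measured, with 7 higher and 15 lower and a median of -0.45 (0.21 after centring). Gsk3b, a kinase of the complex that degrades beta-catenin, had the largest change of that list, with 11.59, 8.30, 11.02 and 15.89 in NT and 10.11, 8.74, 9.45 and 6.39 in DkkMo (change -3.03 ± 1.16, limma adjusted p = 0.323). Tcf7l1, another TCF factor, was the one component without overlap, at 12.42 to 15.16 in NT and 11.53 to 12.32 in DkkMo. It was 1 of 22, beside 3.22% of all genes lower without overlap. Lrp6, a co-receptor that Dkk-1 binds, changed by -0.67 with overlapping groups (limma adjusted p = 0.761). The 13 measured aldehyde dehydrogenases divided into 5 higher and 8 lower with a median of -0.09. After centring 9 were higher and 4 lower, with a median of 0.56. Aldh1a1 was the 1 of 13 without overlap, beside 3.22% of all genes lower without overlap. Outside Aldh1a1, 15 further markers of the study's stem cell list were measured, of which S100a11 had the largest change of the list (-3.91 ± 1.41, limma adjusted p = 0.312, overlapping groups).

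Chromatin regulators had lower means in DkkMo, with or without NT 5A and NT 7A. All 36 measured of 42 listed were lower, with a median of -2.32 against -0.54 for all genes. Of these, 18 were lower at an unadjusted p below 0.05 (10.2% of all genes), 5 did not overlap (3.22% of all genes) and 0 were called. The median was -1.34 without NT 7A, -2.99 without NT 5A and -1.80 without both, beside -0.22, -0.70 and -0.35 for all genes. After centring it was -1.66, with 33 of 36 lower. The members without overlap were the histone demethylases Kdm3a (-3.55) and Kdm7a (-3.84), the DNA methyltransferase Dnmt3a, Pbrm1 and the remodelling factor Baz1b. Kdm3a was at 14.62, 12.02, 12.59 and 15.13 in NT and at 10.79, 11.90, 8.82 and 8.66 in DkkMo. Its highest DkkMo tumour lay just below NT 5A.

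Genes of oxidative stress and glutathione metabolism were similarly placed. Of 10 measured, 9 were lower and 6 were lower at an unadjusted p below 0.05 (10.2% of all genes), with a median of -2.40 that was -1.45 without NT 7A and -2.25 without both NT 5A and NT 7A. Prdx1, a peroxidase that removes hydrogen peroxide, was at 11.28, 7.44, 8.58 and 14.59 in NT and at 7.36, 6.37, 6.41 and 6.23 in DkkMo. NT 5A was again the NT tumour nearest to DkkMo, and the change missed the call (-3.88 ± 1.29, limma adjusted p = 0.288).

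Other housekeeping groups had lower means in DkkMo, by amounts that changed with the NT tumours included. All 38 measured cytosolic ribosomal protein genes had a lower mean in DkkMo, with a median change of -2.18. Their median level was 10.34, 6.36, 6.58 and 16.68 in NT and 9.90, 10.29, 6.23 and 6.23 in DkkMo. Without NT 7A the median change was 0.00 and 19 of 38 were lower, and without both NT 5A and NT 7A it was -0.74, beside -0.35 for all genes. In DkkMo 29A and 31A, 31 and 30 of the 38 had no reads. Heat shock and endoplasmic reticulum stress genes moved from -2.24 to -0.53 without NT 7A, nuclear respiratory chain genes from -1.94 to -0.36, cholesterol synthesis genes from -1.53 to -0.17 and actin and Arp2/3 genes from -1.90 to -0.73. Without both NT 5A and NT 7A these 4 medians were -1.34, -1.29, -0.44 and -1.27. Ribosomal Rps24 had the largest change in its list (-4.87 ± 1.59, limma adjusted p = 0.288), and Myh9, non-muscle myosin heavy chain, in the actin list (-4.43 ± 1.65, limma adjusted p = 0.319). Cell cycle genes were measured for 11 of 40, of which Tpx2, a spindle assembly factor, was lower without overlap (10.85 to 13.43 in NT, 9.22 to 10.60 in DkkMo, limma adjusted p = 0.278). Over all genes, 3.22% were lower without overlap. Of 19 apoptosis and necroptosis genes, 18 were lower (median -1.43, or -0.83 without NT 7A and -1.07 without both), with Birc6, an inhibitor of apoptosis, having the largest change (-2.82 ± 1.15, limma adjusted p = 0.35). Glycolysis and hypoxia genes had a median of -0.69, or -0.03 without NT 7A and -0.14 without both, and interferon-stimulated genes -0.84, or -0.05 and -0.29.

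**Figure D4:**
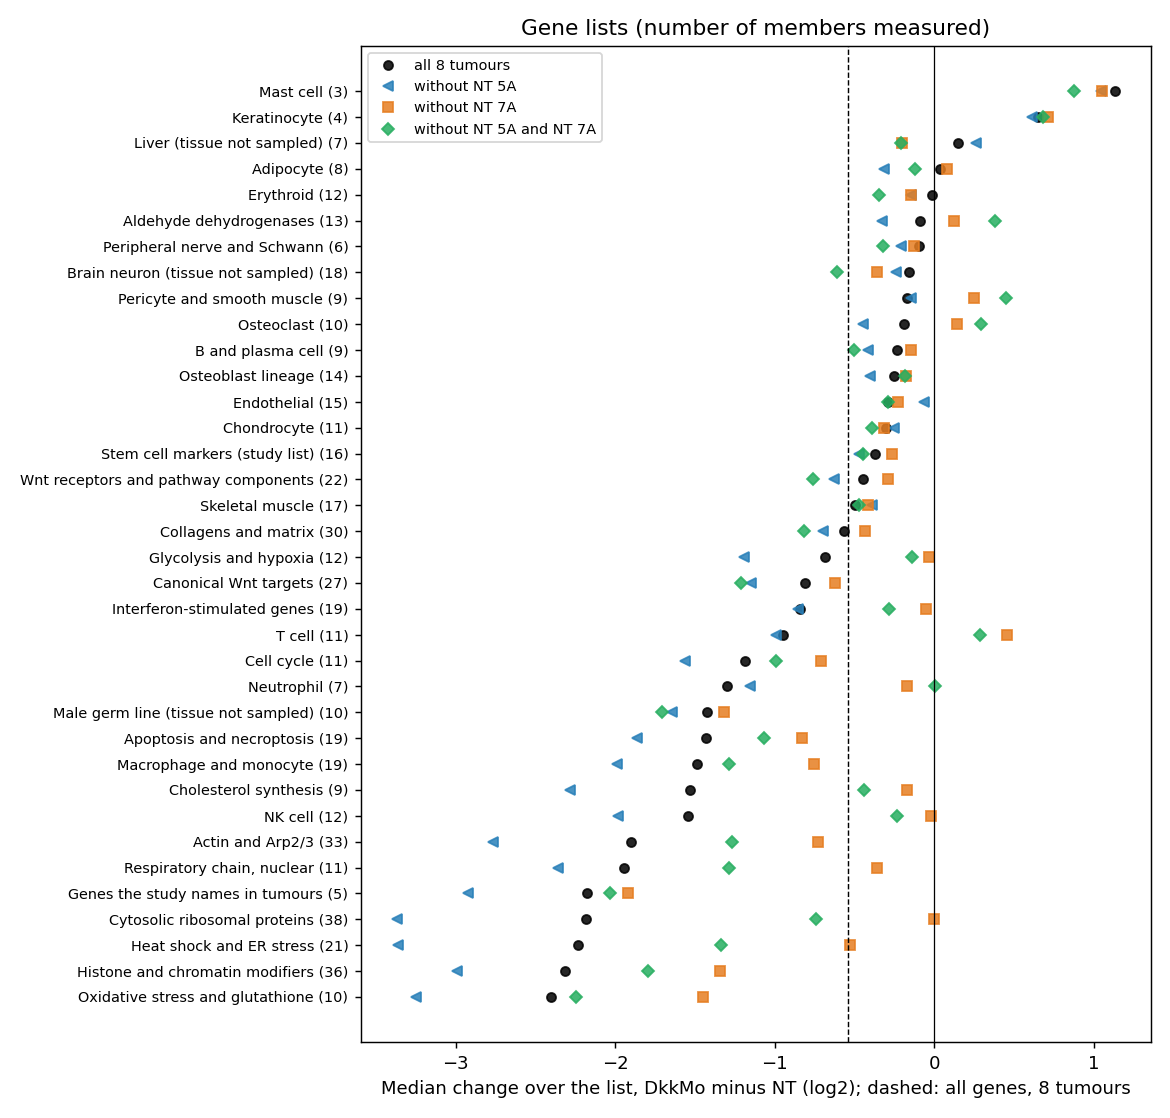
Median change over each gene list (DkkMo minus NT, log2) with all 8 tumours, without NT 5A, without NT 7A and without both, with the number of members measured in brackets. Chromatin regulators stay between -2.99 and -1.34 in the 4 cases, whereas ribosomal proteins move from -3.37 to 0.00.

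Most markers of macrophages and natural killer cells had lower means in DkkMo, by amounts that changed with NT 7A. The 3 measured mast cell markers had higher means. Of 32 macrophage and monocyte markers, 19 were measured, 17 were lower and 7 were lower at an unadjusted p below 0.05 (10.2% of all genes). Their median was -1.49, or -0.75 without NT 7A, -1.28 without both NT 5A and NT 7A and -0.84 after centring. Cx3cr1, the fractalkine receptor, was at 13.09, 10.38, 12.41 and 13.93 in NT and at 10.29, 10.31, 6.78 and 8.69 in DkkMo. Spi1, the transcription factor PU.1, was likewise lower without overlap (-2.13, limma adjusted p = 0.375). These were 2 of the 19 markers, beside 3.22% of all genes lower without overlap. Lysozyme Lyz1 had the largest change (-4.54 ± 1.52, limma adjusted p = 0.288) with NT 5A at 6.47 and the other NT tumours at 12.12 to 16.25. The defining markers Csf1r and Adgre1, by contrast, changed by -0.75 and -0.34 with overlapping groups. All 12 measured natural killer cell markers had a lower mean (median -1.54), but without NT 7A the median was -0.02. Perforin, Prf1, was at 13.45, 7.10, 14.20 and 19.10 in NT and at 11.18, 11.21, 6.23 and 6.23 in DkkMo. Granzyme B, Gzmb, was at 22.04 in NT 7A and at 11.90 to 16.52 in the other 7 tumours. T cell markers had a median of -0.95, or 0.45 without NT 7A, in a host that lacks mature T cells. Of 9 measured B and plasma cell markers 3 were higher and 6 lower, with a median of -0.24 that was 0.41 after centring. Of 7 neutrophil markers 2 were higher and 5 lower, with a median of -1.30 that was -0.17 without NT 7A and 0.00 without both NT 5A and NT 7A. Of 12 mast cell markers 3 were measured, and all 3 were higher, with a median of 1.13. Mrgprb1 of that list did not overlap (6.91 to 8.11 in NT, 8.96 to 10.15 in DkkMo, limma adjusted p = 0.323). Of all genes, 1.82% were higher without overlap. In combination against DRB all 3 markers were lower, with a median of -0.68 and a smallest limma adjusted p of 0.499.

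No marker of bone or its surrounding tissue passed the test. Osteoblast lineage markers had a median of -0.25, with 5 higher and 9 lower of 14, where 68.3% of all genes were lower. After centring their median was 0.40, with 10 higher and 4 lower. Col1a1 and Alpl, which mark matrix-forming osteoblasts, changed by 0.04 and 0.23. Of the 14, 1 was higher without overlap, beside 1.82% of all genes. It was Sp7, the osteoblast transcription factor osterix, at 7.57, 8.66, 7.75 and 7.43 in NT and at 9.51, 9.06, 8.94 and 9.21 in DkkMo (change 1.33, limma adjusted p = 0.468). Osteopontin, Spp1, was at 16.94, 7.64, 16.49 and 21.70 in NT and at 15.03, 15.71, 11.46 and 8.64 in DkkMo. Both groups thus held high and low tumours, and the change was -2.98 ± 2.15 (limma adjusted p = 0.54). Chondrocyte, osteoclast, endothelial, pericyte, adipocyte and nerve lists had medians of -0.31 to 0.04, or 0.34 to 0.69 after centring. In the osteoclast list, Car2 had the largest change (-3.35 ± 1.57, limma adjusted p = 0.392). Of 30 matrix genes, 10 were higher and 20 lower (median -0.57), and after centring 15 were higher and 15 lower (median 0.08). Mmp14, a membrane-bound collagenase, had the largest change (-3.01 ± 0.86, limma adjusted p = 0.273). Timp2 and Islr of the matrix list were higher without overlap, beside 1.82% of all genes, and neither was called. Skeletal muscle markers, of the tissue the tumours were dissected from, had a median of -0.50, with 13 of 17 lower. After centring it was 0.15, with 9 higher and 8 lower. The titin gene Ttn was at 7.98 to 12.45 in NT and 6.54 to 8.75 in DkkMo, while Myl1, a fast-muscle myosin light chain, was at 10.81, 12.86, 11.41 and 10.20 in NT and at 13.36, 12.33, 13.48 and 13.86 in DkkMo. The part of muscle in the changes of Ckmt2 and Myl1 was not tested. Lists of tissues that were not sampled moved too. Their median changes were 0.15 for 7 liver genes, -0.16 for 18 neuron genes and -1.43 for 10 male germ line genes. Median levels per tumour were 10.70 to 11.95 for neuron, 8.29 to 9.96 for liver and 7.94 to 10.96 for germ line genes. Osteoblast lineage markers were at 8.14 to 9.70, so a level alone does not show that a cell type is present. Across genes, levels followed gene span with a rho of 0.30 to 0.45 in NT and 0.33 to 0.40 in DkkMo.

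The median changes were ordered by how strongly the cultured tumour cells express a gene. Of the 12595 genes, 6854 were also listed for untreated log-phase cultures of the same cells and were split into 4 equal classes by their level there. The median change went from -0.12 for the 5741 genes not listed in culture to -0.34, -0.86, -1.17 and -1.48 from the lowest to the highest class. At an unadjusted p below 0.05, 5.45% of genes not listed were lower, then 7.70%, 13.4%, 18.4% and 16.9% from the lowest to the highest class. In the highest class 0.233% were higher. Shares lower without overlap were 2.93%, then 3.56%, 4.03%, 3.74% and 2.51%, beside 3.22% of all genes. Neither share thus followed the order of the medians throughout. Without NT 7A the same medians were -0.13, -0.18, -0.26, -0.36 and -0.36. Without both NT 5A and NT 7A they were -0.17, -0.29, -0.43, -0.61 and -0.69. In combination against DRB, from other mice, they were -0.30, -0.48, -1.06, -1.31 and -1.86. The level of a gene in a tumour followed its level in culture with a rho of 0.44 in NT 7A, against -0.18 to 0.03 in the other NT tumours and -0.16 to -0.05 in DkkMo (across 6854 genes, a description). Reads on genes listed in culture made up 77.7% of reads in NT 7A, 48.3% to 64.1% in the other NT tumours and 48.5% to 53.8% in DkkMo. The 64.1% was that of NT 6A, with 69306196 reads. Of these, Trim30a and Trim12c, both listed in culture, took 9794352 and 9802502.

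Non-coding and unnamed transcripts were more balanced. Protein-coding genes had 1.66% higher and 11.7% lower at an unadjusted p below 0.05, and long non-coding RNAs 3.58% and 6.21%. Sensory receptor genes, with 251 listed, had a median change of 0.09 and 3.19% higher against 3.98% lower. By mean value the most abundant genes in both groups included Gm10800, Gm10801 and Klhl1, and in NT also Trim30a and Trim12c. Trim30a, an interferon-inducible gene, was at 20.87, 17.16, 23.4 and 21.09 in NT and at 17.25, 19.22, 17.60 and 17.34 in DkkMo (change -2.78 ± 0.85, limma adjusted p = 0.273), and Trim12c gave nearly the same values. Trim30a and Trim12c lie near each other on chromosome 7, as do Gm10800 and Gm10801 on chromosome 2. Values within each pair were nearly the same, so their separate counts are uncertain. Whether reads were shared within a pair was not tested. Cpne4, Met and Klhl1, at 16.73 to 20.78 in all 8 tumours, changed by 0.66 to 0.86.

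The count of calls changed most when NT 5A was left out. Without NT 5A, limma called 15 genes higher (0.119%) and 207 lower (1.64%). With any other NT tumour left out the count was 0, without DkkMo 28A it was 2, and with both NT 5A and NT 7A left out, picked once the data had been inspected, it was 2. Leaving out NT 5A removes the NT tumour most like the DkkMo tumours. Among the 207 were Nsd1, Prf1, Lyz1, Myh9, Rps24, Tcf7 and 7 of the 36 chromatin regulators. The 15 included Ckmt2, Myl1, Rtn1, a reticulon of neuronal endoplasmic reticulum, and Ift122, a component of transport in cilia. For Ckmt2 the change was then 3.67 (adjusted p = 0.0462), and for Trub1 it was -5.80 (adjusted p = 0.0154).

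The same agent was also given to other mice together with DRB, and the values of combination against DRB, which share no tumour with DkkMo against NT, are set beside it. Reads were 28332806 to 41050644 in combination and 85318891 to 106124280 in DRB, so depth and treatment cannot be told apart here either, and in both comparisons the tumours given DkkMo were the shallower group. limma called 54 genes higher (0.429%) and 872 lower (6.92%) in combination, whereas centring gave 173 higher and 298 lower and voom on recovered reads called 0. Both comparisons came from 1 fit and share its estimate of the spread. Of the 405 genes lower without overlap in DkkMo against NT, 322 (79.5%) were lower and 77 (19.0%) were called lower in combination against DRB, where 69.9% of all genes were lower. Of the 229 genes higher without overlap, 153 (66.8%) were higher and 6 (2.62%) were called higher, where 30.1% of all genes were higher. Of the 10 largest decreases, Bbip1 (-7.31), Trub1 (-7.54), Htra3 (-6.58) and Pbrm1 (-5.18) fell in combination against DRB with limma adjusted p-values of 0.00265, 0.000136, 0.002 and 0.0074, and the other 6 missed the call with changes of -2.70 to -0.11. None of the 10 largest increases was called, with changes of -0.71 to 1.69. Aldh1a1 fell by 3.70 (adjusted p = 0.00176) and Nsd1 fell by 5.20 (adjusted p = 0.0233), while Arpc2, Hsd17b4 and Setd7 missed the call at -4.67, -3.36 and -3.33. Chromatin regulators had a median of -2.46 there, with 10 of 36 called lower, and ribosomal proteins -4.74, with 7 of 38. The difference between the changes with and without DRB was tested directly, and limma called 0 genes, with 853 at an unadjusted p below 0.05 and a smallest adjusted p of 0.586. Voom also called 0.

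**Figure D5:**
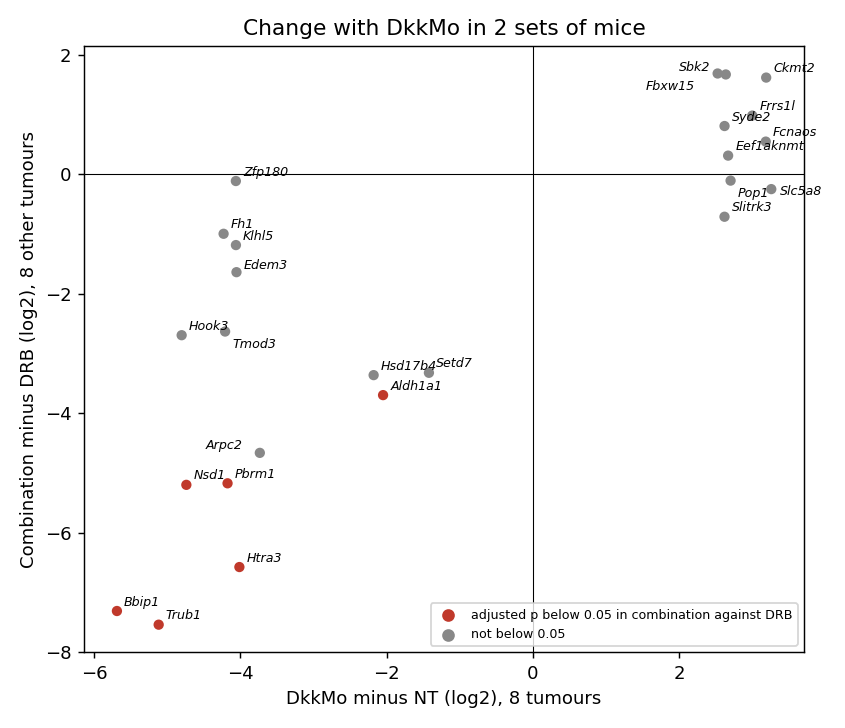
Change in combination against DRB (8 tumours) plotted against the change in DkkMo against NT (8 other tumours), both log2, for 25 genes. Red marks an adjusted p below 0.05 in combination against DRB. All 15 genes lower in DkkMo lie below 0 on both axes, and 7 of the 10 higher genes lie above 0 on both.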

How the data were processed

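RNA-seq of tumour tissue was analysed from the deposited table of variance-stabilised values. Per the sources, the authors aligned paired reads to GRCm38 with HISAT2 2.1.0, counted them with featureCounts of Subread 2.0.0 and transformed the counts with DESeq2 into the deposited log2 values. No raw counts were used. The transformation was reversed, which gave whole reads (within 0.05), and depth comes from these. limma 3.58.1 in R 4.3.3 (trended empirical Bayes, Benjamini-Hochberg) was fitted to all 16 tumours with 1 mean per group, and a call needed a change of over 1.5-fold whose adjusted p was below 0.05. All 12595 genes passed the filter of reads in at least 4 libraries. Single values were compared with two-sided exact permutation tests of 4 against 4. Each tumour is labelled as a separate specimen, and p-values measure only the spread between specimens. Levels in culture are the mean of the deposited log2 values of the untreated log-phase cultures, leaving out genes whose replicates differed by over 6. Chromosomes X, Y and the mitochondrial genome were not analysed here. Coordinates are from GENCODE vM21 and promoters from RefSeq (GRCm38.p6), matched by symbol (12275 and 8627 genes).

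Gene lists and named genes were chosen with earlier results of these data known. Named genes were the 5 discussed in the study, the 10 largest changes in each direction without overlap between groups (predicted and clone names left out), the member with the largest change in each list and the 5 most abundant genes of each group. Other members named were picked after their values were seen. Alternatives changed the scaling, the libraries in the model, the weights, the scale, the filter, the threshold and the replicates.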

Additional observations from a re-analysis of the deposited data

Results flagged for a closer look

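In each group of 4 tumours, a value was picked out where its gap to the nearest other tumour exceeded Dixon's 95% critical value as a share of the group's range. Of 130 groups examined 4 met this, and chance alone gives about 1 in 20. In NT, Ckmt2 was at 8.82 in NT 5A against 6.86 to 6.97 in the other tumours, and Fh1 was at 8.09 in NT 5A against 11.91 to 12.18. Genes without reads numbered 1101 in NT 6A against 164 to 213. In DkkMo, Htra3 was at 7.93 in DkkMo 24A, with 216 reads, and had no reads in the other 3 tumours.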

How the results depend on the processing

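No paired analysis was possible because the tumours are of different mice and their labels carry no shared replicate numbers. For DkkMo against NT, 0 genes were called with the 8 libraries alone, centring, no variance trend, array weights, log2 of the normalised count plus 1, both voom fits, either filter and all thresholds. Quantile normalisation called 1 (Trub1), leaving out 1 tumour at a time 0 to 222, and leaving out NT 5A and NT 7A 2. For combination against DRB (926, alternatives chosen after the data were seen) the count was 471 after centring, 1670 with array weights, 0 with voom, 565 with thinned voom, 522 above the median mean, 156 at an adjusted p below 0.01, 242 to 2205 without 1 tumour (251 to 421 without any 1 combination tumour, 242 and 532 without the first or second DRB tumour, 2205 without NT 7A) and 2119 without NT 5A and NT 7A. For the difference of both, array weights called 1 and leaving out 1 tumour 0 to 1. Among 1974 values of 106 genes, 1918 kept their direction and side of the threshold. Reversals were Spp1 with array weights (0.79), and without NT 5A and NT 7A Ncf4 (0.0024), Met (-0.12), Lrp6 (0.091), Gm10801 and Gm10800 (both -1.24). Without 1 tumour, Gm10801 and Gm10800 ranged from -0.27 to 0.77 and 0.79, below 0 without NT 5A, NT 7A or DkkMo 24A. Of 444 median changes of all genes and 36 lists, 416 moved by less than the SD between tumours and 54 changed sign. The cause was not tested.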
